A study of Mus musculus with 2 samples.

Results

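Mrgprb2-only mast cells were mast cells of the fetal mouse lung in which RNA of the receptor gene Mrgprb2 was detected and that of its neighbour Mrgprb1 was not. They were chosen by unique molecular identifiers (UMIs, each standing for 1 captured RNA molecule). A barcode was kept with at least 200 genes, at most 5% mitochondrial UMIs and 1 clear hashtag, a litter label whose top antibody had at least 10 UMIs and 3 times those of the next. A mast cell had at least 3 UMIs of Cma1 and 5 of Hdc, and a member had at least 1 UMI of Mrgprb2 and 0 of Mrgprb1. This gave 400 Mrgprb2-only cells among 2904 mast cells and 8598 singlets of 10648 deposited barcodes. The remaining mast cells were 2319 double-negative cells without a UMI of either receptor gene and 185 Mrgprb1-positive cells, of which 155 also held an Mrgprb2 UMI.

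Mast cells store histamine, serotonin, heparin and proteases in granules and release them when antigen joins IgE on their surface. Mast cells of connective tissue also carry Mrgprb2, a G protein-coupled receptor for cationic peptides and drugs such as substance P and compound 48/80, through which they degranulate without IgE. It is held to be the mouse counterpart of human MRGPRX2, whereas Mrgprb1 lies in the same gene cluster and is used as a marker of the connective tissue type.

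The cells came from wild type (C57BL/6J) fetuses at gestation day 18, whose mothers, 9 weeks old, were given either the synthetic glucocorticoid dexamethasone (DEX, 1.3 µg/ml) or phosphate-buffered saline (PBS) in their drinking water. Treatment began at gestation day 12. A litter is 1 pooled sample, of which each treatment has 2: DEX-1 pooled the lungs of 8 fetuses, DEX-2 those of 9, PBS-1 those of 5 and PBS-2 those of 8. Live CD45+ ST2+ cells negative for lineage antigens such as CD3e, CD4, CD8A, CD11b, CD11c and TER119 were sorted as group 2 innate lymphoid cells (ILC2s), and mast cells, which carry ST2 too, passed this gate. The cells described therefore had to be ST2+ and do not stand for every mast cell of the lung. Whether DEX altered these cells was asked by comparing DEX with PBS litters.

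All litters were loaded together into 1 gene expression library, read with 1 hashtag library, and all 10648 barcodes were in both. Sums over the Mrgprb2-only cells of a litter held 352916 to 842246 UMIs, against 4625372 to 7161995 for double-negative and 355740 to 471020 for Mrgprb1-positive cells. Among Mrgprb2-only cells DEX-2 stood apart, with 12.2% of cells holding a UMI of the division genes Mki67 or Top2a against 0 to 7.07% in the other 3 litters. Its Gzmb was at 89.1 CPM (counts per 1000000 UMIs of the sum, after TMM scaling) against 2.86 to 5.82. The division share was highest in DEX-2 in double-negative (19.1 against 10.6 to 14.7%) and Mrgprb1-positive cells (13.5 against 0 to 6.82%) too. Without TMM scaling, Gzmb was highest in DEX-2 in double-negative cells, at 1404 CPM against 885 to 987. In Mrgprb1-positive cells it was highest in PBS-2. As a measure of free RNA from other cells, a UMI of the alveolar epithelial gene Sftpc was found in 69% of Mrgprb2-only cells, 78.9% of 1154 ILC2-type barcodes and 75.2% of 210 B-type barcodes. Summed over the 6 epithelial markers, Mrgprb2-only cells held 9508 CPM (3509 to 13842 by litter) and double-negative cells 6381 CPM (5349 to 8422). Of the Sftpc UMIs in Mrgprb2-only cells, 58.5% lay in 5 cells, so their epithelial sum rested largely on few cells. The median share of UMIs from markers of other cell types, basophils aside, was 0.0481% in Mrgprb2-only and 0.0513% in double-negative cells. The 7 basophil markers, some of which, such as Fcer1a, mast cells carry too, summed to 4175 CPM (2806 to 6469) in Mrgprb2-only and 5411 CPM (3321 to 9153) in double-negative cells, with none of them at 0. The lists for B cells, T cells, macrophages, neutrophils, endothelium, mesenchyme and erythroid cells each summed to at most 202 CPM in Mrgprb2-only cells, with 4 of 5 neutrophil markers, C1qb, C1qc, Cd3d and Cd8a at 0 UMIs.

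Mrgprb2 (Mas-related G protein-coupled receptor B2) lies on the minus strand of chromosome 7 at 48550965-48558086 (GRCm38), with Mrgprx2 at 48478619-48499321 and Mrgprb1 at 48444113-48456342 next to it on the same strand. The 250 bases before the RefSeq start of each gene are shown because RNA of these neighbours defined or followed the cells (GRCm38.p6, 5′ to 3′ on the gene's strand, with GATA motifs in capitals).
Mrgprb2, chr7:48558087-48558336: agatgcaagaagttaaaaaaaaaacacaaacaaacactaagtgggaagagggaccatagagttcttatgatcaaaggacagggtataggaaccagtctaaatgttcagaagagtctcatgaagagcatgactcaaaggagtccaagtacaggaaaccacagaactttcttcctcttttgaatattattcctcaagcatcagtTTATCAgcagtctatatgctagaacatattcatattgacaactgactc
Mrgprx2, chr7:48499271-48499520: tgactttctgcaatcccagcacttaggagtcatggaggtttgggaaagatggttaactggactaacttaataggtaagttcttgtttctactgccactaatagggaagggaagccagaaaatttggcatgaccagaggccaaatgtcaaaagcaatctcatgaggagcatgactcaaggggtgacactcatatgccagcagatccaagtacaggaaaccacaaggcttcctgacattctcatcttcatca
Mrgprb1, chr7:48456343-48456592: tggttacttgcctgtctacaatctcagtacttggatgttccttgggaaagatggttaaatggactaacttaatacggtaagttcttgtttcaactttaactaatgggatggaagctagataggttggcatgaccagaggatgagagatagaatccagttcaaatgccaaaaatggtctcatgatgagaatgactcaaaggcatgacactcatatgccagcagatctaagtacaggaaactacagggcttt
The GATA motif was searched on both strands as AGATAA or, in its variant form, as TGATAA. The E-box was searched as the palindrome CACGTG and, in the form known from mast cell genes, as CATGTG. The GATA motif began 48 bases before the start of Mrgprb2, on the opposite strand, and none was in the windows of Mrgprx2 and Mrgprb1, while no E-box was in any of these. Of the 32851 promoters of this length in the table, 16.6% held a GATA motif and 17.6% an E-box. The Mrgprx2 and Mrgprb1 windows were identical at 187 of 221 aligned bases (84.6%), against 124 of 232 (53.4%) for Mrgprb2 and Mrgprb1 and 135 of 205 (65.9%) for Mrgprb2 and Mrgprx2. None of the stretches of 50 bases in the transcripts of one of these genes was found in the others, so that exact reads of that length can be told apart among them. Other Mrgpr genes were not compared.

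Mrgprb2 RNA was nearly confined to mast cells: of 1737 Mrgprb2 UMIs in singlets, 921 (53%) were in Mrgprb2-only cells, 807 in Mrgprb1-positive cells and 9 in 7 of 4331 other singlets. In ILC2-type barcodes it was seen in 0 of 1154, which allows a share of up to 0.26% of cells with a UMI. Within the members the level was low and uneven. A single Mrgprb2 UMI was held by 203 cells (50.8%), 2 or 3 UMIs by 123 and 4 or more by 74, with a highest count of 16. By litter it was 486, 298, 390.2 and 375 CPM (litters in the order DEX-1, DEX-2, PBS-1, PBS-2 here and for all values below). These values follow from the rule and were not tested.

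Mrgprb2-only cells held a median of 4928.5 UMIs (3988, 5035, 5220 and 4977 by litter), below the 7997 of double-negative cells (7603, 8961, 7423.5 and 7667) and the 8185 of Mrgprb1-positive cells in every litter. Thinned to 5000 UMIs, 154 of the 196 members deep enough still held an Mrgprb2 UMI, and at 2000 UMIs 201 of 364 did. Cells without a UMI of a receptor gene are not shown to lack its RNA. At the edge of the rule, the 203 cells with 1 Mrgprb2 UMI measured 17434 CPM of Tpsb2 and 205 of Rgs13, against 7474 and 85 in the 2319 cells with 0. The 20 cells left out for a single Mrgprb1 UMI measured 21412 and 209 CPM. There were 0 members with exactly 3 Cma1 UMIs and 3 with exactly 5 Hdc UMIs, while 7 barcodes with Mrgprb2 and without Mrgprb1 failed the mast cell rule and measured 654 CPM of Tpsb2.

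**Figure D1:**
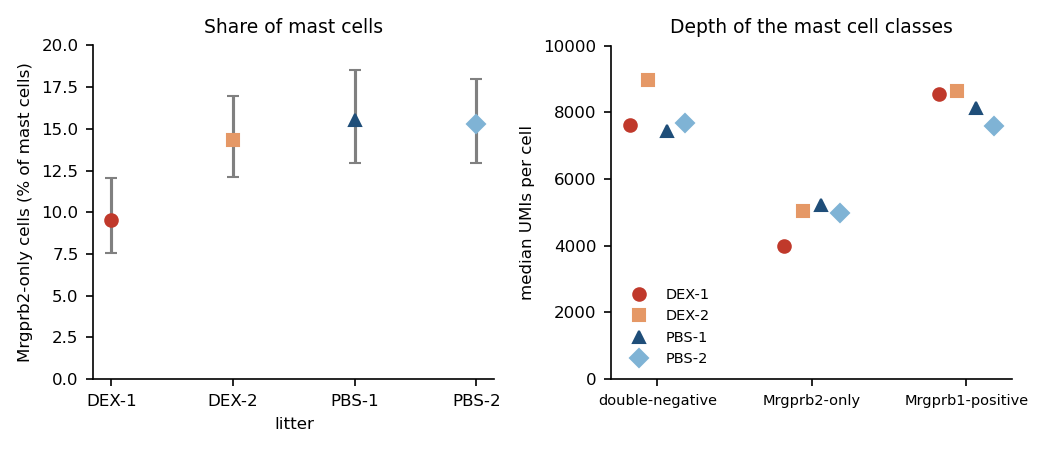
Left, the share of mast cells that were Mrgprb2-only in each litter, in percent with 95% Wilson intervals, lowest in DEX-1 at 9.57%. Right, the median UMIs per cell of the 3 mast cell classes, with 1 point a litter; the Mrgprb2-only points lie between 3988 and 5220 and below both other classes.

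The label was checked against its markers. Cma1, the chymase that the rule itself used, measured 41864, 27826, 27325 and 35892 CPM in Mrgprb2-only cells and 14359, 14869, 14939.6 and 16106 in double-negative cells. Tpsb2, a tryptase of connective tissue mast cells, had a UMI in 400 of 400 Mrgprb2-only cells. It also had one in 89.9% of double-negative and 100% of Mrgprb1-positive cells. Rgs13, a mast cell regulator of G protein signalling, had a UMI in 238 of 400 (59.5%). Its shares were 45.7% in double-negative and 74.1% in Mrgprb1-positive cells, which were deeper. With cells thinned to 2000 UMIs, Rgs13 was found in 33.8% of Mrgprb2-only, 19.9% of double-negative and 32.4% of Mrgprb1-positive cells. Mcpt4, another connective tissue chymase, was found in 165 of 400 (41.2%), nearly the 40.5% of double-negative cells (30.8 against 28.3% with cells thinned to 2000 UMIs), and in 63.2% of Mrgprb1-positive cells. In ILC2-type barcodes of median depth 9024 UMIs the shares were 7.54% for Tpsb2 and 0.693% for Mcpt4. Of the 5 markers, 2 belong to the rule itself. Tpsb2 and Rgs13 were present in all or most Mrgprb2-only cells, but many double-negative and most Mrgprb1-positive cells held them too. Mcpt4 was found at nearly the share of double-negative cells.

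Mrgprb2-only cells were next compared with double-negative mast cells of the same litters. This asks what else differs between mast cells with an Mrgprb2 UMI and those without a UMI of either receptor gene. Mrgprb2-only cells carried more RNA for tryptases, the high-affinity IgE receptor and the serotonin transporter, and less for Gzmb, Mcpt8, Scin and the genes of cell division. UMIs were summed per class and litter, scaled by TMM to CPM, and tested with edgeR's quasi-likelihood test with litter as a block and Benjamini-Hochberg adjustment over all genes. Of 10435 genes tested, 461 (4.42%) were higher and 374 (3.58%) lower in Mrgprb2-only cells at an adjusted p under 0.05, together 8.00%. Beside this, 13.2% of all genes were higher and 16.6% lower in every litter, and for 15.6% the classes did not overlap. All fold changes below are log2 values of Mrgprb2-only over double-negative cells, with standard errors, n = 4 litters, and the median over all genes tested was -0.02. The calls fell to 246 without PBS-2, 547 without DEX-1 and 550 without DEX-2, and to 325 when cells with a UMI of Gzmb, Scin, Mcpt8, Mki67 or Top2a were left out of both classes, a split chosen after the data were seen. Cells with such a UMI made up 14.5% of Mrgprb2-only and 40.7% of double-negative cells, and depth and division differed between the classes as well, and the part of each in the differences was not tested beyond these settings.

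Among the 21 genes of the Mrgpr family, 1 besides those of the rule had enough UMIs to be tested. Mrgprx2, a mouse gene that shares its symbol with human MRGPRX2, measured 76.2, 25.1, 34.3 and 26.2 CPM in Mrgprb2-only cells and 1.34, 0.409, 2.27 and 0.81 in double-negative cells. The classes did not overlap, and the difference was 5.03 ± 0.42 (edgeR adjusted p = 1.59e-05, n = 4 litters). It rested on 86 UMIs in 59 of 400 Mrgprb2-only cells against 26 UMIs in 20 of 2319 double-negative cells. Of the rest, Mrgpra4 was seen in 7, Mrgpre in 5, Mrgprb8 in 4 and Mrgpra9 in 1 of the 400 cells, and Mrgpra2b and Mrgprf in 0, which allows a share of up to 0.75% of cells with a UMI. Mrgprb8 was seen in 0 of 2319 double-negative cells, and Mrgpra9 in 65 of them.

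The granule proteases split. Of 16 tested, 5 rose and 4 fell in Mrgprb2-only cells, with a list median of 0.12. Tpsb2 measured 25585, 14303, 16951 and 19055 CPM against 7201, 6816, 6918 and 7959.8 in double-negative cells. Each Mrgprb2-only value lay above each double-negative value, and the gene rose by 1.36 ± 0.12 (adjusted p = 1.59e-05). Prss34, a serine protease also known from basophils, rose by 0.96 ± 0.14 (adjusted p = 9.73e-04), from 329 ± 46.2 to 662 ± 206 CPM (mean ± SD), although without the Gzmb, Scin, Mcpt8, Mki67 or Top2a cells it was at 0.76 with an adjusted p of 0.0829. Gzmb, which encodes the cytotoxic protease granzyme B, measured 3.17, 89.1, 2.86 and 5.82 CPM against 864, 1372, 927 and 943, a log2 fold change of -5.39 ± 0.40 (adjusted p = 1.03e-05). It was found in 12 of 400 Mrgprb2-only cells, and 5 of these cells held 91% of its UMIs there, while 489 of 2319 double-negative cells had it. After thinning to 2000 UMIs the shares were 0.824 and 16.8%, beside 2.6% unthinned in ILC2-type barcodes. Mcpt8, a protease used as a basophil marker, had a log2 fold change of -2.92 ± 0.18 (adjusted p = 4.47e-06), at 9.52, 16.3, 15.7 and 13.1 against 107, 94.8, 124 and 109 CPM. The 7 basophil markers went both ways, with 3 higher (Cd200r3, Fcer1a and Prss34), 2 lower (Ifitm1 and Mcpt8) and a median of 0.11. Cd200r3, a receptor of basophils and mast cells, measured 565, 483, 437 and 608 CPM against 233, 283, 236 and 265 and rose by 1.03 ± 0.11 (adjusted p = 9.67e-05). The part of basophils in these differences was not tested. Mcpt4 measured 2263, 1531, 803 and 2387 CPM against 1021, 1509, 935 and 1277, and the classes overlapped (0.47 ± 0.18, adjusted p = 0.147).

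Genes that fill and store amines in the granules were higher in 5 of 9 tested and lower in 0, with a median of 0.57 against -0.02 over all genes. Slc6a4, the serotonin transporter, measured 911, 541, 695 and 629 CPM against 373, 266, 333 and 305. The classes did not overlap, and it rose by 1.10 ± 0.10 (adjusted p = 1.59e-05). Srgn, the core protein that holds granule contents, rose by 0.62 ± 0.10 and Maob, an amine oxidase, by 0.73 ± 0.12. Tph1, the first enzyme of serotonin synthesis, rose by 0.60 ± 0.10 (adjusted p = 0.00309) but was at 0.07 (adjusted p = 0.714) among mast cells between percentiles 25 and 75 of depth, at 0.25 (adjusted p = 0.11) thinned to 5000 UMIs and at 0.17 (adjusted p = 0.331) without the Gzmb, Scin, Mcpt8, Mki67 or Top2a cells. Without PBS-2 the adjusted p was 0.0632 for Srgn and 0.0578 for Tph1. Of 18 genes of heparin synthesis, 1 rose and 1 fell. Ndst2, a sulfotransferase of heparin, had a log2 fold change of 0.44 ± 0.11 and Xylt1, which starts the sugar chain, one of -0.47 ± 0.13, and neither call held without DEX-1, without DEX-2 or without PBS-2 (adjusted p = 0.0643 to 0.18), nor did that of Xylt1 without PBS-1 (adjusted p = 0.0708). Ndst2 was at 0.20 (adjusted p = 0.537) thinned to 2000 UMIs and at 0.26 (adjusted p = 0.342) without the Gzmb, Scin, Mcpt8, Mki67 or Top2a cells. Of 17 genes of the degranulation machinery, such as the small GTPase Rab27b and the vesicle protein Vamp8, 0 passed the edgeR test, 6 had an unadjusted p under 0.05, and the list had a median of 0.13.

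The IgE receptor list had 6 of 20 genes higher and 3 lower. Fcer1a, the IgE-binding chain of the receptor, measured 248, 122, 193 and 96 CPM against 19.3, 20.7, 33.8 and 28.8. The classes did not overlap, and it rose by 2.59 ± 0.22 (adjusted p = 1.59e-05). With cells thinned to 2000 UMIs it was found in 14.3% of Mrgprb2-only and 4.79% of double-negative cells (21.2 and 9.06% unthinned), and in 0 of 1154 ILC2-type barcodes. Fcer1g, the signalling chain, rose by 0.76 ± 0.10 from 2548 ± 105 to 4354 ± 608 CPM (adjusted p = 4.47e-04). Lyn, the kinase that starts signalling, had a log2 fold change of -0.56 ± 0.12 and Milr1, an inhibitory receptor, of -1.85 ± 0.39, though without PBS-2 their adjusted p were 0.0873 and 0.106. Without the Gzmb, Scin, Mcpt8, Mki67 or Top2a cells Milr1 was at -0.82 (adjusted p = 0.447).

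Regulators of G protein signalling moved in both directions, with 3 of 21 higher and 2 lower. Rgs13 measured 200, 151, 262 and 233 CPM against 68.7, 69.4, 98.4 and 95.9, without overlap, and rose by 1.33 ± 0.11 (adjusted p = 1.59e-05). Rgs1, another brake on G protein signals, rose by 0.73 ± 0.11, while Rgs2 went the other way with -0.86 ± 0.12 (adjusted p = 9.89e-04 and 8.71e-04). The rise of Rgs1 was 0.10 (adjusted p = 0.623) between percentiles 25 and 75 of depth, and the fall of Rgs2 lost its call without the Gzmb, Scin, Mcpt8, Mki67 or Top2a cells (adjusted p = 0.0665). Gpr141b, an orphan G protein-coupled receptor, measured 102, 51.5, 42.9 and 68.4 CPM against 6.68, 8.73, 7.83 and 8.58 and rose by 2.96 ± 0.25 (adjusted p = 1.59e-05).

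Of 12 genes of lipid mediators, 2 rose and 2 fell. Hpgd, which inactivates prostaglandins, measured 57.1, 32.6, 107 and 91.7 CPM against 10.1, 7.78, 25.3 and 24 and rose by 2.10 ± 0.17 (adjusted p = 1.59e-05). Ptgs2, the inducible cyclooxygenase, measured 102, 89.1, 133 and 131 CPM against 639, 282, 521 and 395, with a log2 fold change of -1.92 ± 0.15 (adjusted p = 1.21e-05). The classes did not overlap for either gene. Ptgs2 was found in 14.5% of Mrgprb2-only and 47.6% of double-negative cells, and in 8.52 and 34.2% after thinning.

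Of 17 cytokine and chemokine genes, 1 rose and 5 fell, with a median of -0.49. Tnf, an inflammatory cytokine that mast cells can store, measured 425, 195, 426 and 279 CPM against 85.7, 98.1, 125 and 105, without overlap, and rose by 1.61 ± 0.17 (adjusted p = 7.86e-05). Osm, a cytokine of the interleukin 6 family, had a log2 fold change of -1.32 ± 0.25 (adjusted p = 0.00547, and 0.0871 without PBS-2). Il13, a type 2 cytokine, measured 41.3, 143, 94.3 and 77.1 CPM against 161, 177, 178 and 193 with -0.97 ± 0.19 (adjusted p = 0.00664, and 0.0924 without PBS-2). Its direction turned to 1.12 (adjusted p = 0.00509) when cells with Gzmb, Scin, Mcpt8, Mki67 or Top2a were left out, and it was at -0.36 (adjusted p = 0.369) without cells holding Mki67 or Top2a. Of 25 receptors for cytokines and peptides, 2 rose: Adora3, an adenosine receptor, by 0.78 ± 0.11 and Il1rl1, which encodes ST2, by 0.45 ± 0.10. Il1rl1 measured 613, 524, 668 and 616 CPM against 424, 406, 430 and 509 (adjusted p = 0.0139), all cells having been sorted for its product, and without PBS-2 its adjusted p was 0.0654. The difference was 0.21 (adjusted p = 0.235) between percentiles 25 and 75 of depth, 0.30 and 0.19 thinned to 5000 and 2000 UMIs (adjusted p = 0.164 and 0.329), and 0.27 (adjusted p = 0.24) without the Gzmb, Scin, Mcpt8, Mki67 or Top2a cells.

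Genes of division were lower. Of 20 division genes, 0 rose and 14 fell, with a median of -1.15. Ube2c, a ubiquitin enzyme of mitosis, measured 3.17, 20.1, 25.7 and 7.28 CPM against 69.8, 109, 147 and 93.8 (-2.82 ± 0.21, adjusted p = 1.20e-05), and the kinase gene Aurkb 0, 12.6, 5.72 and 2.91 against 16, 34, 31.7 and 27. Thinned to 5000 UMIs Aurkb was at -1.42 (adjusted p = 0.162). Cells with an Mki67 or Top2a UMI made up 6.5% of Mrgprb2-only, 14.8% of double-negative and 7.03% of Mrgprb1-positive cells. With cells thinned to 2000 UMIs these shares were 1.92, 6.47 and 3.41%, and at 5000 UMIs DEX-2 was the exception, with 17.2% of its Mrgprb2-only against 15.3% of its double-negative cells. Without cells holding such a UMI, Ube2c was at -0.98 (adjusted p = 0.3), and between percentiles 25 and 75 of depth it was at -0.20 (adjusted p = 0.866).

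Of 14 immature and progenitor genes, 1 rose and 4 fell. Scin, an actin-severing protein, measured 0, 13.8, 1.43 and 5.82 CPM against 68.7, 70.9, 71.9 and 53.3, with -3.39 ± 0.35 (adjusted p = 7.00e-05). Itga4, the integrin chain used by progenitors to enter tissue, measured 6.35, 62.8, 25.7 and 32 CPM against 151, 196, 183 and 208, with -2.45 ± 0.23 (adjusted p = 3.33e-05). Neither gene overlapped between the classes, and for Itga4 the change was -0.71 (adjusted p = 0.161) without the Gzmb, Scin, Mcpt8, Mki67 or Top2a cells. Nkg7, a cytotoxic granule protein, went from -3.29 ± 0.27 (adjusted p = 1.39e-05) to -0.32 (adjusted p = 0.702) under the same exclusion. Pde3a, a phosphodiesterase, with -2.80 ± 0.20, and Il1r2, the decoy receptor for interleukin 1, with -2.59 ± 0.23, kept their calls in each alternative in which they were tested (adjusted p = 7.50e-06 and 1.87e-05). Of 19 lineage transcription factors, 2 rose and 3 fell. Meis2, a homeobox factor, rose by 0.99 ± 0.15 (adjusted p = 0.00133, and 0.0518 without the Gzmb, Scin, Mcpt8, Mki67 or Top2a cells), and Lmo4, a cofactor, had -1.55 ± 0.25 and Runx1 -1.07 ± 0.19, with adjusted p of 0.00186 and 0.00462. Without PBS-2 the adjusted p of Runx1 was 0.0615, while without the cells named above Runx1 was at -0.80 (adjusted p = 0.0829) and Lmo4 at -0.47 (adjusted p = 0.175).

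Of 20 glucocorticoid targets, 3 rose and 6 fell across the classes, over DEX and PBS litters together, with a median of -0.38. Mt1, a metallothionein, rose by 0.92 ± 0.12 (adjusted p = 5.69e-04). Nr3c1, the glucocorticoid receptor itself, measured 295, 216, 177 and 209.6 CPM against 344, 292, 239 and 283, lower in 4 of 4 litters with -0.38 ± 0.10 (adjusted p = 0.0359, but 0.153 without DEX-2 and 0.2 without PBS-2). Fkbp5, a chaperone that glucocorticoids induce, measured 25.4, 22.6, 55.7 and 40.7 against 49.4, 40.7, 56.4 and 50.5 CPM and did not pass (adjusted p = 0.179). Genes known to respond to tissue dissociation moved with the class as well, with 5 of 18 higher and 2 lower and a median of 0.21: Ier2, an immediate early gene, measured 4507, 3148, 3445 and 3705 CPM against 2439, 1786, 2341 and 2324 (0.73 ± 0.09, adjusted p = 3.58e-04). Egr2, another immediate early gene, rose by 1.90 ± 0.25 (adjusted p = 5.26e-04). Their part in the other differences was not tested.

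Several of the largest differences rested on few cells or on genes with near copies. Tac1, the precursor of substance P, a ligand of Mrgprb2, measured 92, 8.79, 91.5 and 4.37 CPM against 7.44, 3.55, 1.03 and 2.11, with 3.39 ± 0.63 (adjusted p = 0.00553). It was found in 13 of 400 Mrgprb2-only cells (6, 2, 4 and 1 by litter), 5 of which held 85.4% of its UMIs, so its difference rested on few cells. Fabp2, a fatty acid binding protein of the gut, measured 22.2, 70.3, 48.6 and 71.3 CPM against 4.01, 2.73, 2.27 and 33.9 and was found in 22 cells, 5 of which held 75.3% of its UMIs, and its change of 2.93 ± 0.50 (adjusted p = 0.00304) was 1.41 (adjusted p = 0.0834) thinned to 2000 UMIs. Speer4d, Gm10354 and Gm9758 rose by 2.78 ± 0.22, 2.66 ± 0.25 and 2.66 ± 0.29, but 32.8 to 38.5% of the 50-base stretches in their transcripts are shared among them, so the counts could be split between copies. Scgb1a1, a secretory protein of airway club cells, measured 6.35, 15.1, 12.9 and 11.6 CPM against 41.8, 48.7, 673 and 114, and its log2 fold change of -3.95 (adjusted p = 1.26e-04) became 0.09 (adjusted p = 0.947) when mast cells with over 2% of UMIs from markers of other cell types were left out. These were 14 Mrgprb2-only and 68 double-negative cells. Without the cells in the top 5% of UMIs Scgb1a1 was at -0.13 (adjusted p = 0.9). Scgb3a2, another club cell gene, went from -3.64 (adjusted p = 7.50e-06) to -1.29 (adjusted p = 0.256), Hbb-bs, a haemoglobin gene, from -2.43 (adjusted p = 0.0181) to -0.17, and without PBS-1 Hbb-bs was at -0.79 (adjusted p = 0.514).

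**Figure D2:**
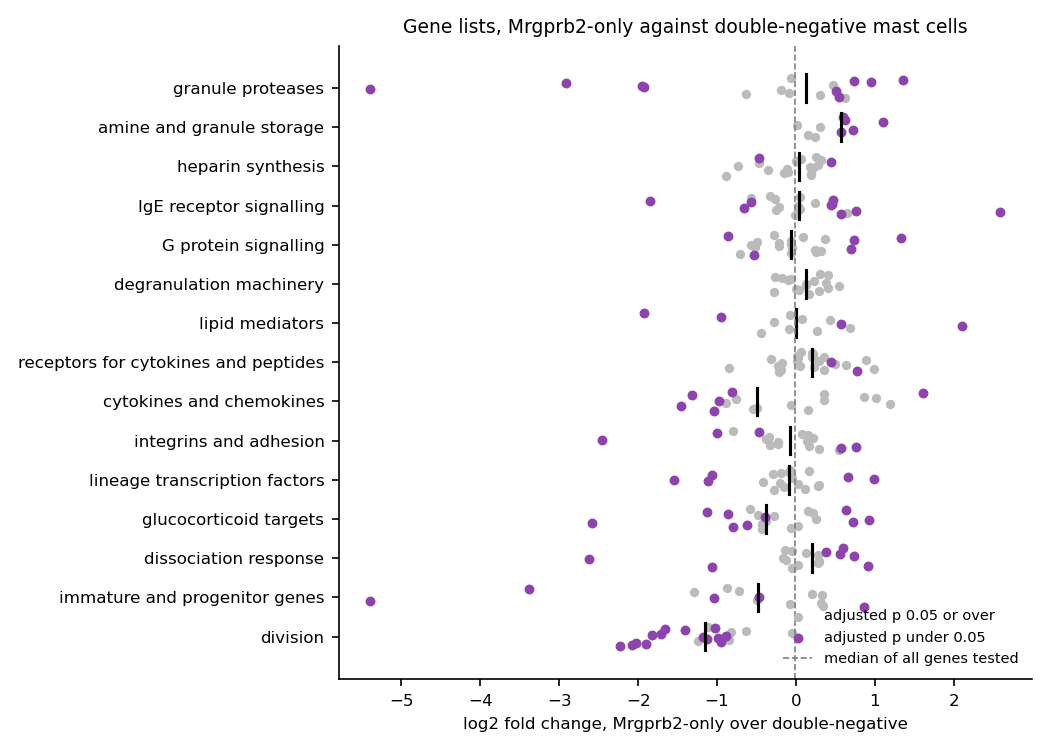
Each point is 1 gene of a list, placed at its log2 fold change of Mrgprb2-only over double-negative mast cells, and purple points passed the edgeR test. Black bars are list medians and the dashed line is the median of all genes tested, -0.02; among the lists plotted, division has the lowest median, -1.15, and amine and granule storage the highest, 0.57.

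Within Mrgprb1-negative mast cells the levels were set against the number of Mrgprb2 UMIs, as a description. For Tpsb2 and Rgs13 most of the step lay between 0 and 1 UMI. Tpsb2 measured 7474, 17434, 16086 and 17613 CPM in cells with 0, 1, 2 or 3, and 4 or more UMIs, and Rgs13 85, 205, 175 and 230. Neither rose steadily beyond the first UMI. Tnf, over all litters together, rose more after the first UMI than at it, at 106, 186, 254 and 528 CPM. In DEX-2, though, Tnf was highest in cells with 1 UMI. Over all litters together Gzmb went down at each step, at 1092, 49.8, 28.3 and 1.45 CPM, and Mrgprx2 went up, at 1.14, 22.5, 35.3 and 46.3, but within a litter Gzmb went down at each step in DEX-2 alone and Mrgprx2 went up at each step in PBS-1 alone. Cpa3, the granule carboxypeptidase, was highest in the last bin over all litters together, at 6950.1, 8579, 7868 and 11349.5, though in DEX-2 it was highest in cells with 1 UMI. The bins also differ in depth, with medians of 7997, 4035, 5347 and 7383.5 UMIs, and the last bin holds 74 cells over the 4 litters together.

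**Figure D3:**
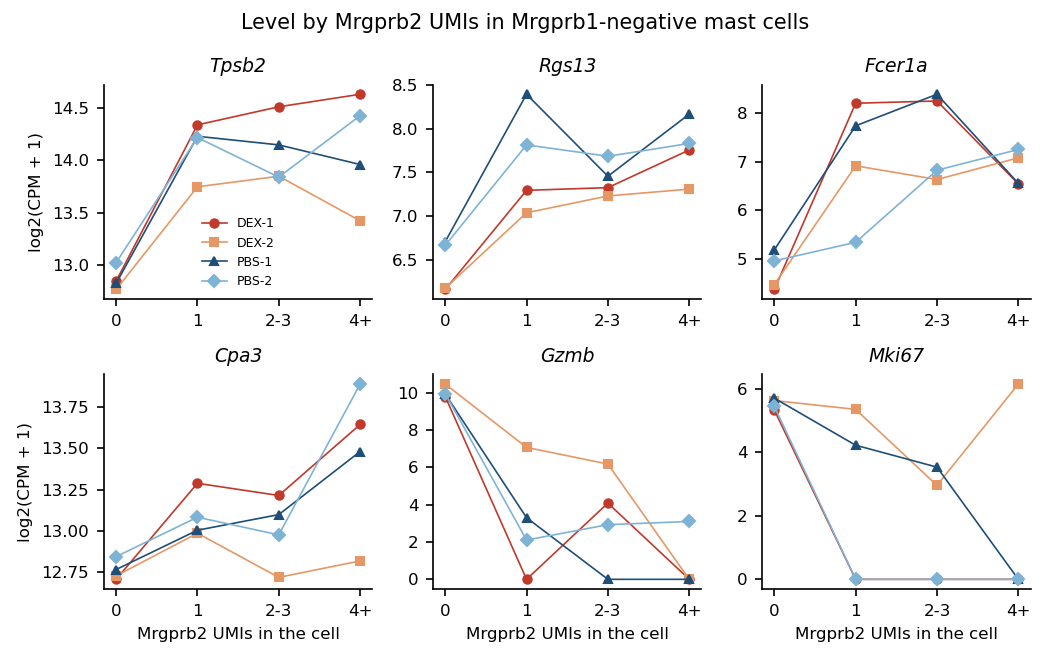
Level of 6 genes, as log2(CPM + 1), in Mrgprb1-negative mast cells binned by their Mrgprb2 UMIs, with 1 line a litter. Tpsb2 and Rgs13 step up between 0 and 1 UMI in all 4 litters, and Gzmb is below its level at 0 UMIs in every bin and litter.

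The Mrgprb2-only cells were then set against the 185 Mrgprb1-positive mast cells (39, 52, 44 and 50 by litter) in the same way. Fewer genes passed, from smaller sums, and most of those that did were lower in Mrgprb2-only cells, among them Mcpt4, the paired receptor genes Pilra and Pilrb2, and Mrgprx2. Of 5322 genes tested, 13 (0.244%) were higher and 53 (0.996%) lower, together 1.24%. The calls ranged from 19 without DEX-2 to 92 without DEX-1, with 32 without PBS-1 and 30 without PBS-2. Beside this, 9.71% of all genes were higher and 11.0% lower in every litter, and for 6.35% the classes did not overlap. Fold changes below are log2 values of Mrgprb2-only over Mrgprb1-positive cells, and the 2 comparisons share the Mrgprb2-only cells, whose CPM differ slightly because TMM scaling was done per comparison.

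Mcpt4 measured 2204, 1525, 833 and 2381 CPM in Mrgprb2-only cells and 10169, 13997, 8628 and 12587 in Mrgprb1-positive cells. All 4 litters were lower, without overlap, and the difference was -2.79 ± 0.20 (adjusted p = 1.96e-04). Of 12 granule proteases 0 were higher and 3 lower, including Cpa3 with -0.73 ± 0.13 (adjusted p = 0.0235, and 0.175 without DEX-2 and 0.166 without PBS-2) and the lysosomal protease gene Ctsd, with -0.77 ± 0.13 (adjusted p = 0.0177, and 0.134, 0.102 and 0.0944 without DEX-2, PBS-1 or PBS-2). Tpsb2 was at 24923, 14254, 17580.2 and 19007 against 26451, 23676, 27929 and 25097 CPM and did not pass (-0.47 ± 0.15, adjusted p = 0.207), and neither did Rgs13 (0.11 ± 0.13, adjusted p = 0.791). Of 9 amine and storage genes 0 were higher and 4 lower, with a median of -0.31. Slc6a4 was at 887, 539, 720.5 and 627 against 1482, 1084, 1215 and 1001 CPM (-0.79 ± 0.10, adjusted p = 0.00319), and Slc45a3, a sugar carrier, at -1.03 ± 0.12 (adjusted p = 0.0023).

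Of 17 IgE receptor genes 1 was lower, Fcer1a, at 241, 121, 200.1 and 95.8 against 416, 295, 484 and 220 CPM. It was lower in 4 of 4 litters although the classes overlapped, with -1.14 ± 0.13 (adjusted p = 0.00199, and 0.106 with the litters not paired). Mrgprx2 was at 74.2, 25, 35.6 and 26.1 against 188, 125, 157 and 119 CPM (-1.98 ± 0.20, adjusted p = 0.0013) and Gpr141b at -1.63 ± 0.17 (adjusted p = 0.00133). Pilra and Pilrb2 were lower, with -2.56 ± 0.35 and -2.52 ± 0.25 (adjusted p = 0.0061 and 0.00107), though 29.2% of the 50-base stretches of Pilrb2 recur in its relatives. Further lower were Slc29a1, a nucleoside transporter, with -1.73 ± 0.13, Chpt1, an enzyme of phosphatidylcholine synthesis, with -1.72 ± 0.18, the growth factor gene Csf1 with -1.47 ± 0.23 and the chemokine gene Ccl1 with -1.80 ± 0.26. The call of Csf1 was lost without PBS-1 (adjusted p = 0.106) and that of Ccl1 without DEX-2 (adjusted p = 0.0565). Of 7 division genes that could be tested, 0 passed the edgeR test, with 0 at an unadjusted p under 0.05, and of 15 glucocorticoid targets 0 passed, with 2 at an unadjusted p under 0.05.

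Higher in Mrgprb2-only cells was Ptgs2, at 98.9, 88.8, 138 and 131 against 15.4, 18.2, 33.6 and 26.9 CPM with 2.27 ± 0.20 (adjusted p = 5.40e-04). With Alox5ap, which hands arachidonic acid to 5-lipoxygenase (0.95 ± 0.12, adjusted p = 0.00319), it made 2 of 10 lipid mediator genes higher and 0 lower. Sox5, an HMG-box transcription factor, was at 77.3, 57.6, 94.9 and 62.4 against 15.4, 22.7, 14 and 13.5 CPM (2.09 ± 0.27, adjusted p = 0.00446). Cebpb, a factor of myeloid cells, was at 0.80 ± 0.11 and Fgl2, a fibrinogen-like protein, at 1.71 ± 0.27 (adjusted p = 0.0061 and 0.0106), and both calls were lost without DEX-2 (adjusted p = 0.0698 and 0.0502) and without PBS-2 (adjusted p = 0.0509 and 0.0574), and that of Fgl2 also without PBS-1 (adjusted p = 0.072). Ccl4, a chemokine of activated cells, varied between litters, at 95.8, 385, 492 and 103 against 80.1, 25, 50.4 and 31.4 CPM, and its call (adjusted p = 0.028) was lost without DEX-2, PBS-1 or PBS-2, at 0.227, 0.25 and 0.0613.

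Side by side, on plain CPM of the 3 classes, Fcer1a measured 19.7, 21.2, 35.5 and 30.2 in double-negative, 221, 115, 201 and 89.5 in Mrgprb2-only and 379, 277, 455 and 208 in Mrgprb1-positive cells, and thus lay in between in Mrgprb2-only cells in each litter. Ptgs2 showed the opposite order, with 655, 289, 547 and 414, then 90.7, 84.3, 138 and 122, then 14.1, 17, 31.5 and 25.5. Mcpt4 did not follow such an order, since its Mrgprb2-only and double-negative values overlapped at 835 to 2223 and 981 to 1544 CPM. These orders rest on cells that the rule separated by Mrgprb1 and Mrgprb2 and are given as a description.

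**Figure D4:**
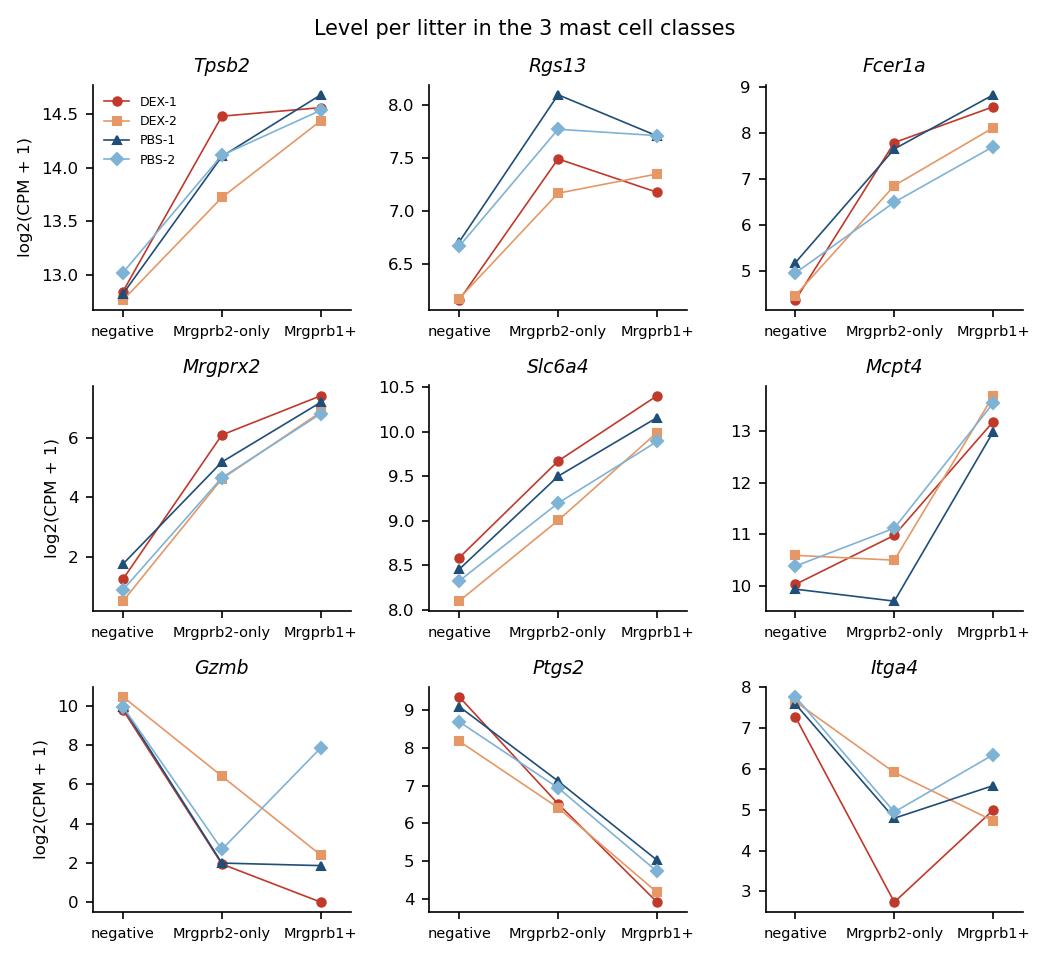
Level of 9 genes, as log2(CPM + 1), in double-negative, Mrgprb2-only and Mrgprb1-positive mast cells, with 1 line a litter. Fcer1a, Mrgprx2 and Slc6a4 climb and Ptgs2 declines from left to right in all 4 litters, while Mcpt4 is high only in Mrgprb1-positive cells and Gzmb only in double-negative cells, apart from Mrgprb1-positive cells of PBS-2 and Mrgprb2-only cells of DEX-2.

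The effect of DEX was first asked of the share of mast cells that were Mrgprb2-only. In DEX-1 it was 9.57% (64 of 669, 95% Wilson interval 7.56 to 12%). DEX-2 had 14.4% (115 of 801, 95% Wilson interval 12.1 to 17%). PBS-1 had 15.5% (99 of 637, 95% Wilson interval 12.9 to 18.6%), and PBS-2 15.3% (122 of 797, 95% Wilson interval 13 to 18%). Both DEX litters lay below both PBS litters, but DEX-2 lay within the intervals of the PBS litters, and the intervals cover counting error only. The means were 12% ± 3.39 and 15.4% ± 0.166 (SD, n = 2 litters each), and the exact permutation test gave a two-sided p = 0.333, the smallest that 2 litters against 2 allow. Without DEX-1 the difference shrank from -3.46 to -1.07 percentage points. DEX-1 was also the litter with the shallowest Mrgprb2-only cells. With mast cells thinned to 5000 UMIs the shares were 5.06, 7.56, 10 and 8.75%, in the same order of groups. These shares cover only the 435, 595, 428 and 537 mast cells deep enough. Of the 64 Mrgprb2-only cells of DEX-1, 38 were under 5000 UMIs and were left out. The part of depth in the share was therefore not settled.

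Within Mrgprb2-only cells 0 of 6826 genes (0.00%) differed between DEX and PBS litters by edgeR at an adjusted p under 0.05, and 287 (4.20%) had an unadjusted p under 0.05. DESeq2 called 0 as well, and the lowest adjusted p was 0.745. The count was 83 without DEX-1, 0 without DEX-2, 26 without PBS-1 and 94 without PBS-2, fits in which 1 lone litter is assumed to vary like the others. Of all genes, 16.4% had both DEX values above the PBS values and 17.4% had both below, and the median log2 fold change of DEX over PBS was 0.01.

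Rgs13 measured 196, 148, 262 and 228 CPM, with both DEX litters below both PBS litters (-0.54 ± 0.23, adjusted p = 0.999 by edgeR). Fkbp5 measured 24.8, 22.2, 55.8 and 39.9 CPM, again lower in both DEX litters (-1.04 ± 0.37, adjusted p = 0.999), although glucocorticoids are known to induce it. Nr3c1 measured 289, 212, 177 and 205 CPM, with both DEX litters higher (0.36 ± 0.24, adjusted p = 0.999). None of these differences passed. Il1rl1 measured 599, 514, 668 and 603 CPM, Tpsb2 25029.6, 14029, 16963 and 18675, Mcpt4 2214, 1501, 804 and 2339 and Mrgprx2 74.5, 24.6, 34.3 and 25.7 (adjusted p = 0.999 for each by edgeR), and for the last 3 the groups overlapped. For Mcpt4 the spread among litters of 1 group was larger than the difference between the groups, with 804 and 2339 CPM in the PBS litters.

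By list, 0 of 18 glucocorticoid targets passed, with a median of -0.06, and the same holds for 14 granule proteases (0.04), 9 amine and storage genes (0.03), 17 IgE receptor genes (0.17), 15 genes of degranulation (0.22) and 15 cytokines and chemokines (-0.01). At an unadjusted p under 0.05 edgeR listed 2, 1, 0, 0, 2 and 4 genes of these 6 lists. The list furthest from 0 among those with 10 or more genes was division, at 0.67 over 10 genes with 0 called by edgeR and 3 at an unadjusted p under 0.05, and 14 of the 26 Mrgprb2-only cells with an Mki67 or Top2a UMI came from DEX-2. The part of that litter in the list's median was not tested. Markers of other cell types summed to different levels between litters, as given above, and their part was not tested.

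The DEX difference was compared between Mrgprb2-only and double-negative cells by an interaction in edgeR, which called 0 of 11206 genes (0.00%), with 369 (3.29%) at an unadjusted p under 0.05, a lowest adjusted p of 0.072 and 0 calls by DESeq2. For Rgs13 it was -0.04 ± 0.25, for Tpsb2 0.17 ± 0.25 and for Nr3c1 0.10 ± 0.23 on the log2 scale (adjusted p = 1 for each). Leaving out 1 litter gave 33 to 107 calls, 64 without DEX-1, 33 without DEX-2, 37 without PBS-1 and 107 without PBS-2. With all 2904 mast cells summed, 0 of 12237 genes (0.00%) passed by edgeR, with 580 (4.74%) at an unadjusted p under 0.05, and DESeq2 called 6. There Mrgprb2, which the rule for mast cells did not use, measured 58.5, 54.2, 83.4 and 64.2 CPM, lower in both DEX litters by a log2 fold change of -0.39 ± 0.15 that did not pass (adjusted p = 1). Rgs13 measured 83.2, 84, 128 and 119 CPM over all mast cells, with -0.56 ± 0.10 (adjusted p = 0.761).

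**Figure D5:**
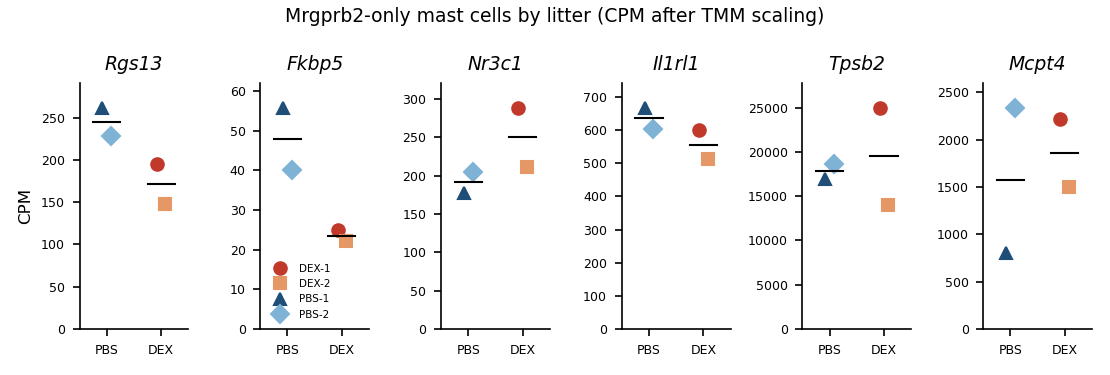
CPM of 6 genes in Mrgprb2-only mast cells of the 2 PBS and 2 DEX litters, with 1 point a litter and black bars for the group means. Rgs13 and Fkbp5 are lower in both DEX litters and Nr3c1 higher, whereas Tpsb2 and Mcpt4 overlap; no difference passed the test.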

How the data were processed

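Fetal lung ST2+ cells were measured as 1 gene expression library (10x Genomics 5′ chemistry) and 1 hashtag library, each of them holding all 4 litters. The authors made raw UMI counts per gene, hashtag and barcode with Cell Ranger, and deposited them without normalization. The file header gives version 7.0.0 and the labels the build mm10. Annotation of cells by the authors was not used here. Hashtag rows were matched to antibodies by number and antibodies to litters by the protocol. One figure legend of the study names a single mother per treatment, while its methods, the labels and the hashtags give 2, which were used.

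Barcodes were filtered and sorted into classes as the report states. Doublets across litters were removed by hashtag, those within a litter were not. ILC2-type barcodes (at least 3 UMIs of Gata3 and 1 of Il7r) and B-type barcodes (at least 3 UMIs of Cd79a), both outside the mast cell rule, gave the level of free RNA. Counts were summed per litter and class, and genes passing filterByExpr were tested with edgeR 4.0.16 (TMM, glmQLFit and glmQLFTest, two-sided) with litter as a block where both classes came from the same litters, under R 4.3.3 and limma 3.58.1. The block rests on the design, since each litter gave both classes. P-values were adjusted by Benjamini-Hochberg over all genes tested, the genes of the rule being left out, and called under 0.05. They measure the spread between 4 pooled litters. The scripts were tested on simulated data. Thinning drew 5000 or 2000 UMIs per cell and left out shallower cells. Intervals are 95% Wilson, and the limit for a count of 0 is 3 counts.

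The members and the 26 gene lists were chosen with earlier results of these data known. Named were the markers, at most 4 called genes per list by smallest p, the 10 largest rises and 10 largest falls among called genes of at least 20 CPM that moved alike in every litter, the Mrgpr genes, Il1rl1, Nr3c1 and Fkbp5. Uncalled genes given values besides these, and the genes of the Mrgprb2 UMI bins, were chosen after their values were seen. Alternatives were DESeq2 1.42.0, no filter on low counts, depth, hashtag, mitochondrial, division and class limits, pairing, and leaving out each litter. Thinning to 2000 UMIs, leaving out cells with over 2% of UMIs from other cell types, and leaving out cells with Gzmb, Scin, Mcpt8, Mki67 or Top2a were added after seeing the data. Gene positions are from GENCODE M21 and promoters from a RefSeq set. That set held Mrgprb2, Mrgprx2 and Mrgprb1 but had no entry for Tpsb2 and Tpsab1, so only the first 3 are shown.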

Additional observations from a re-analysis of the deposited data

Results flagged for a closer look

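Among the genes named as called, 67 in the comparison with double-negative cells and 29 in that with Mrgprb1-positive cells were examined for a litter that stood apart from the other 3, by Dixon's test on the log2 ratio of the classes per litter (2 CPM added). Chance alone would mark about 1 in 20, and 4 genes were marked.

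Slc6a4, the serotonin transporter, had a log2 ratio of Mrgprb2-only over double-negative cells of 1.28 in DEX-1 and of 1.02 to 1.06 in the others. Nr3c1, the glucocorticoid receptor, had -0.22 in DEX-1 and -0.43 in each of the others. Sftpb, a surfactant gene of alveolar epithelium, had 1.58 in PBS-2 and 0.24 to 0.47 in the others. Mrgprx2 had a log2 ratio of Mrgprb2-only over Mrgprb1-positive cells of -1.32 in DEX-1 and of -2.23 to -2.08 in the others. DEX-1 was the litter with the fewest Mrgprb2-only cells, 64, and the lowest sum, 352916 UMIs. Its part in these values was not tested.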

How the results depend on the processing

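Counts of calls moved with the litters and cells included. Against double-negative cells the 835 calls became 325 without the Gzmb, Scin, Mcpt8, Mki67 or Top2a cells (258 shared), 446 with at least 2 Mrgprb2 UMIs (388 shared), 369 and 469 with cells thinned to 5000 and 2000 UMIs (336 and 352 shared), and 246 to 969 with a litter left out, the former without PBS-2. With litters not paired (no replicate block) 683 were called, 619 of them shared, and 40 in place of 66 against Mrgprb1-positive cells. Of the 67 named called genes, 48 kept their call without PBS-2. Il13 turned to 0.47 between percentiles 25 and 75 of depth and to 1.12 without the cells named above. Mcm3, a replication gene, turned to 0.10 and 0.0070 under the same settings, Mcpt4 and Sftpb to -0.087 and -0.057 under the first, and Scgb1a1 to 0.089 with at most 2% of UMIs from other cell types. Against Mrgprb1-positive cells the 66 calls became 229 without a filter on low counts, 186 between those percentiles, 156 with a hashtag at 5 times the next, 302 without the top 5% of UMIs, 172 with at most 2% of UMIs from other cell types, 27 with at least 2 Mrgprb2 UMIs, 137 thinned to 5000 UMIs, and 19 to 92 with a litter left out. Rgs13 there turned to -0.14 between those percentiles and to -0.0034 thinned to 5000 UMIs.

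For DEX against PBS in Mrgprb2-only cells the 0 calls by edgeR (287 at an unadjusted p under 0.05, 0 by DESeq2) became 107 without the filter, 5 between those percentiles, 31 with the mother's number as a block and 0 to 94 with a litter left out. Over the genes tested, deviations of same-numbered litters correlated at -0.02 in Mrgprb2-only and 0.04 in all mast cells. A correlation over all genes cannot tell whether some genes vary with the number. Whether same-numbered mothers shared more than a number was not tested. Mcpt4 turned to -0.37 between those percentiles, -0.11 thinned to 5000 UMIs, and with a litter left out ranged from -0.34 to 1.24. Without DEX-1, Mcpt4 was at -0.063, Mrgprx2 at -0.27 and Tpsb2 at -0.33, the last 2 reaching 1.33 and 0.51 without DEX-2. For the interaction the 0 calls became 45 without the filter, 3 between those percentiles, 1 with the stricter hashtag, 1 without cells with Mki67 or Top2a, 6 without the top 5% of UMIs, 5 with at most 2% of UMIs from other cell types, 3 with at least 2 Mrgprb2 UMIs, 2 and 4 thinned to 5000 and 2000 UMIs, and 33 to 107 with a litter left out. Its value for Rgs13 turned to 0.12, 0.055, 0.16 and 0.029 between those percentiles, with at most 2% of other UMIs, with at least 2 Mrgprb2 UMIs and thinned to 5000 UMIs, and ranged from -0.18 to 0.20 with a litter left out. For Nr3c1 it turned to -0.20 thinned to 2000 UMIs and for Tpsb2 to -0.16 without DEX-1, with a range from -0.16 to 0.55. Over all mast cells the 0 calls became 6 by DESeq2, 254 without the filter, 4 thinned to 2000 UMIs, 57 with the mother's number as a block and 0 to 10 with a litter left out. The difference in the share of Mrgprb2-only cells stayed negative in all settings run, from -5.86 to -1.07 points with a litter left out. Where calls changed, the cause was not tested.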

Other observations

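Among 18 genes of integrins and adhesion, 2 were higher and 3 lower in Mrgprb2-only than in double-negative cells, with a median of -0.07 against -0.02 over all genes. Cd63, a tetraspanin of the granule membrane, measured 3717, 2849, 2862 and 2909 CPM against 2187, 1986, 2107 and 1938 (0.58 ± 0.09, edgeR adjusted p = 0.00175, and 0.0514 without PBS-2). Cd81, another tetraspanin, measured 1536, 1203, 1063 and 1342 CPM against 755, 735, 756 and 759 (0.76 ± 0.10, adjusted p = 5.49e-04). The classes did not overlap. Itgb3, a beta integrin chain, measured 15.9, 35.2, 44.3 and 29.1 CPM against 87, 37.2, 81.1 and 76 (-0.99 ± 0.24, adjusted p = 0.0216). The classes overlapped. Its adjusted p was 0.052 without DEX-1 and 0.183 without PBS-2.

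Both litters numbered 1 stood above both litters numbered 2 for some genes, irrespective of treatment, which was noticed after the values were seen and was not tested. The share of all genes with this order was not counted, so these genes are given as a description only. In Mrgprb2-only cells Fcer1a measured 221, 115, 201 and 89.5 CPM without TMM scaling, and Ifitm1, an interferon-induced membrane protein, 4959, 2460.1, 3918 and 1519.6. Ifitm1 kept this order in double-negative cells, at 8398, 2913, 5949.6 and 2479, and in Mrgprb1-positive cells, at 2949, 829.9, 2709.9 and 406. Fcer1a kept it in Mrgprb1-positive cells, at 379, 277, 455 and 208, but not in double-negative cells, at 19.7, 21.2, 35.5 and 30.2. Tac1 measured 82.2, 8.31, 95.1 and 4.07 CPM in Mrgprb2-only cells and rested on 13 cells.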
